A study of Mus musculus with 2 samples.

Results

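Of the 31829 gene names that the probes carry, 10 were described here for their role in sodium and water transport. They encode the 3 subunits of the epithelial sodium channel, ENaC (*Scnn1a*, *Scnn1b* and *Scnn1g*), 5 aquaporins (*Aqp1*, *Aqp2*, *Aqp3*, *Aqp4* and *Aqp6*), the vasopressin V2 receptor (*Avpr2*) and the FXYD protein *Fxyd4*. The rule that chose them names the genes by their function and uses no measured value, but it was set with earlier results of these data known. They are covered by 13 of the 39429 probes, since *Aqp4*, *Aqp6* and *Avpr2* have a pair of probes each. None of the 10 genes changed 2-fold between the genotypes, against 0.599% of all tested genes. Among genes well above background in both genotypes, as all 10 were, the share was 0.338%. For 7 of them the direction was opposite on the dye-swapped arrays, so that the dye contrast exceeded the difference between genotypes. The same held for 72.3% of all tested genes.

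The mice were 2 months old. Kidney RNA came from animals of the genotype *Cnnm2* fl/fl;*Six2-Cre*, called knockout here, and of the genotype *Cnnm2* +/+;*Six2-Cre*, called control. *Cnnm2* encodes a membrane protein of magnesium transport. Both genotypes carried *Six2-Cre*, a GFP-fused Cre made in nephron progenitors of the embryonic kidney, so that any effect of Cre itself is shared. Array 1 held knockout RNA in Cy5 and control RNA in Cy3, and array 2 held the dyes the other way around. The number of mice behind each RNA, and whether both arrays carried the same RNA, are not given in the sources used here. Each genotype was therefore taken to have 1 replicate, and no p-value given here measures the spread between mice. An SD printed after a mean is taken over the 2 arrays and may cover labeling and hybridization only.

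ENaC sits in the luminal membrane of principal cells, in the late distal convoluted tubule (DCT), connecting tubule and collecting duct, where it takes up sodium under the control of aldosterone. Vasopressin acts on its V2 receptor in the same cells and, through cAMP, moves aquaporin 2 into the luminal membrane, while aquaporins 3 and 4 let water leave at the basolateral side. Aquaporin 1 serves the proximal tubule and thin descending limb, and aquaporin 6 lies in vesicles of intercalated cells. Nephron segments up to the DCT descend from the *Six2*-expressing progenitors in which Cre is made, whereas the collecting duct descends from the ureteric bud. In whole kidney, fewer cells of a type and less RNA per cell cannot be told apart.

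The stretch of RNA that each probe reads limits what its signal means. Probe positions are those of the array's own annotation, on the mm9 build, and no gene model of that build was used here, so exon and UTR positions are not given. The 60 bases of the *Aqp2* probe (chr15:99412578-99413554) are spread over 977 bases of the genome, of which 917 are left out of the probe. The probe therefore reads spliced RNA, and none of its 3 forward frames holds a stop codon. It is shown because *Aqp2* had the dye contrast largest in size among the brightest probes of the 10 genes.
Aqp2: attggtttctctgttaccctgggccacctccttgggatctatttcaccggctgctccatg

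Other probes lie by a polyadenylation hexamer. The letters AATAAA, searched on the printed strand only, were found in 4 of the 13 probes and in 12.6% of all 39429 probes (4965 probes). A match is a description of the letters and does not show where the RNA ends. The 30 bases around each match are given for *Scnn1g* (chr7:128911932-128911991), *Aqp1* (chr6:55298480-55298539), *Aqp6* (chr15:99435849-99435908) and *Avpr2* (chrX:71139568-71139627), with the hexamer in capitals. The *Scnn1g* probe was the poorest in G and C of the 13, at 20%, against a median of 41.7% over all probes.
Scnn1g: ctagtgtttataAATAAAgttttattgata
Aqp1: tcttatggtaagaaAATAAAggacaatgac
Aqp6: gtagaacactccAATAAAtgatgattgttg
Avpr2: tgtctccctAATAAAagttgcagttcattt

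The deleted gene was used to check the labels. *Cnnm2* had log2 ratios of knockout over control of -2.88 and -2.46 on arrays 1 and 2. Of the 31829 gene names, 19707 were tested, meaning that on each array the scanner software called the brightest probe well above background in 1 and the same genotype. Between 62.6% and 68.0% of gene spots were well above background in each channel. Across the 19707 genes, which are not independent replicates, the ratios of the arrays had a Pearson's r of -0.51. All 13 probes of the 10 genes passed that call in each of the 4 channels, and 0 were saturated. Each had 1 spot per array, so no spread between spots was measured for them.

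*Scnn1a* encodes the alpha subunit of ENaC, without which the channel conducts little. Its processed signal, in arbitrary units after background and dye correction, was 4988 in knockout and 7701 in control on array 1, and 6119 in knockout and 5368 in control on array 2. Knockout was thus the lower genotype on array 1 and the higher on array 2, and in each case the Cy3 channel was the brighter. Knockout over control gave log2 ratios of -0.63 and 0.19 and a mean of -0.22 ± 0.58 (SD of the 2 arrays). The SD was larger than the mean.

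*Scnn1b*, the beta subunit, had the same pattern at every channel. Its signal was 605 in knockout and 915 in control on array 1, and 838 in knockout and 684 in control on array 2. The Cy3 channel was again the brighter on both arrays. Log2 ratios were -0.60 and 0.29, with a mean of -0.15 ± 0.63 (SD). The ratios of *Scnn1a* and *Scnn1b* differed by 0.03 on array 1 and by 0.10 on array 2, less than the scanner software's error for a single log2 ratio of either probe, which was at least 0.20.

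*Scnn1g*, the gamma subunit, was the exception among the subunits. Its signal was 25.5 in knockout and 32.8 in control on array 1, and 14.8 in knockout and 17.7 in control on array 2. Knockout was lower on both arrays, but the knockout signal of array 1 was above the control signal of array 2. The log2 ratios were -0.36 and -0.26, and their mean of -0.31 ± 0.07 (SD) was the largest in size among the 10 genes, a difference of -19.4%. Among all tested genes, 9.73% had a mean larger in size. The probe was dim, and its mean was -0.03 when an offset of 50 was added to the signals before loess normalization. The scanner software's own error of the mean was 0.21 log2 units for this probe. The *Scnn1g* and *Scnn1b* probes lie 149.592 kilobases apart on chromosome 7, with *Scnn1b* at chr7:129061584-129061643.

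**Figure D1:**
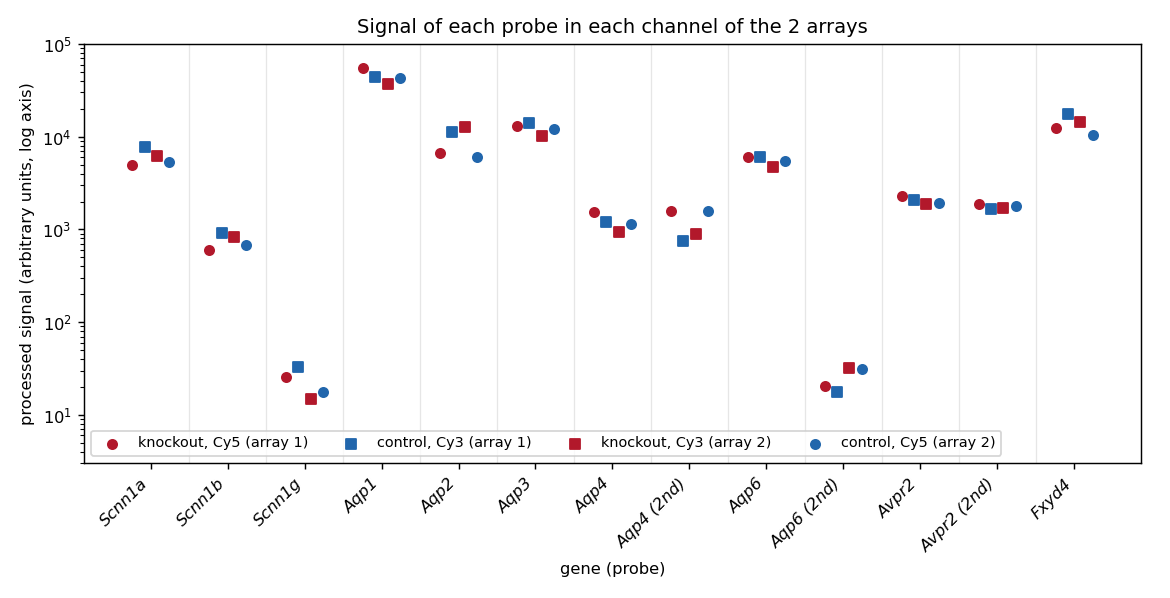
Processed signal (arbitrary units, log axis) of each of the 13 probes in the 4 channels, with knockout in red, control in blue, Cy5 as circles and Cy3 as squares; "2nd" marks the dimmer probe of a gene. For Aqp2, Scnn1a, Scnn1b and Fxyd4 both squares lie above the circle of the same array, whatever the genotype, and the signals of Scnn1g and of the dimmer Aqp6 probe sit near the bottom of the axis.

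*Aqp2* encodes the water channel that vasopressin moves to the luminal membrane. Its signal was 6678 in knockout and 11223 in control on array 1, and 12852 in knockout and 6017 in control on array 2. Both Cy3 signals were above both Cy5 signals, so the genotypes overlapped while the dyes did not. Its log2 ratios of -0.75 and 1.09 had a mean of 0.17 ± 1.30 (SD). Array 2 alone would place *Aqp2* past a 2-fold limit as higher in knockout, whereas array 1 alone would place it below 0. It was the 1 gene of the 10 at 2-fold on array 2, where 3.55% of all tested genes were, and 0 of the 10 were at 2-fold on array 1, where 4.35% were. The dye contrast, Cy5 over Cy3 averaged so that genotype cancels, was -0.92 on the log2 scale, a 1.89-fold excess of Cy3. Among tested genes, 3.26% had a dye contrast larger in size.

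*Aqp3*, a basolateral water and glycerol channel of principal cells (chr4:41039962-41040021), had a dye contrast of 0.06 on the log2 scale. Its signal was 13005 in knockout and 14156 in control on array 1, and 10138 in knockout and 12058 in control on array 2. Knockout was lower on both arrays, although the knockout signal of array 1 exceeded the control signal of array 2. Log2 ratios of -0.12 and -0.25 gave a mean of -0.19 ± 0.09 (SD), a difference of -12.1%. This mean was larger than the SD, and 23.6% of tested genes had a mean larger in size.

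*Aqp4*, the other basolateral water channel, has a pair of probes 3353 bases apart on chromosome 18. The brighter probe gave 1523 in knockout and 1212 in control on array 1, and 949 in knockout and 1142 in control on array 2. Here Cy5 was the brighter dye in each hybridization. Log2 ratios of 0.33 and -0.27 had a mean of 0.03 ± 0.42 (SD). Signals of the second probe were 1590 and 747 on array 1, and 896 and 1567 on array 2, for knockout and control in that order. Its log2 ratios of 1.09 and -0.81 had a mean of 0.14 ± 1.34 (SD) and a dye contrast of 0.95. Both probes thus leaned to Cy5, and the mean of each was smaller than its SD.

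*Aqp1*, the constitutive water channel of the proximal tubule and thin descending limb, had a signal of 54890 in knockout and 44391 in control on array 1, and of 37001 in knockout and 43315 in control on array 2. The Cy5 channel was the brighter on both arrays, and the genotypes overlapped. The log2 ratios were 0.31 and -0.23, with a mean of 0.04 ± 0.38 (SD).

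*Aqp6*, the vesicular channel of intercalated cells, had a signal of 6009 in knockout and 6034 in control on array 1, and of 4739 in knockout and 5504 in control on array 2. Its log2 ratios of -0.01 and -0.22 had the same sign, and the mean was -0.11 ± 0.15 (SD), smaller than the SD. A second probe, 1110 bases away, had signals between 17.4 and 31.8. Its ratios of 0.22 and 0.03 were both above 0, with a mean of 0.12 ± 0.13 (SD), so the probes gave opposite directions. The brighter *Aqp6* probe and the *Aqp2* probe lie 22.294 kilobases apart on chromosome 15.

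*Avpr2* encodes the receptor through which vasopressin raises cAMP in principal cells. The brighter probe (chrX:71139472-71139531) had a signal of 2281 in knockout and 2093 in control on array 1, and of 1861 in knockout and 1926 in control on array 2. Its log2 ratios were 0.12 and -0.05, with a mean of 0.04 ± 0.12 (SD). A second probe, 36 bases away, had signals of 1895 and 1642 on array 1 and of 1697 and 1793 on array 2. Its ratios of 0.21 and -0.08 had a mean of 0.06 ± 0.20 (SD). With both probes, the difference between genotypes was smaller than the SD of the arrays.

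*Fxyd4*, which encodes a modulator of the sodium pump found in the collecting duct (chr6:117883603-117883662), had a signal of 12330 in knockout and 17770 in control on array 1, and of 14430 in knockout and 10401 in control on array 2. The Cy3 channel was the brighter on both arrays. Log2 ratios of -0.53 and 0.47 nearly cancelled, with a mean of -0.03 ± 0.71 (SD). The *Fxyd4* mean was the smallest in size of the 10 genes.

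A gene was counted as changed where its mean ratio was at least 2-fold and had the same direction on both arrays. By this rule 0 of the 10 genes changed, against 0.599% of all tested genes. Among the 18920 genes well above background in both genotypes, as all 10 were, the share was 0.338%. The methods' t-test, paired over the 2 arrays, treats them as 2 replicates and may measure the scatter of labeling only. It was under its threshold of 0.1 for 0 of the 10 genes, and for 4.99% of all tested genes at any fold. It was under 0.05 for 0 of the 10 and for 2.47% of all tested genes, and after Benjamini-Hochberg adjustment for 0 of either. The same direction on both arrays was seen for 3 of the 10 genes (*Scnn1g*, *Aqp3* and *Aqp6*, all lower in knockout), against 27.7% of all tested genes in either direction and 15.6% that were lower on both arrays. The mean exceeded the SD of the arrays for 2 of the 10 (*Scnn1g* and *Aqp3*), against 20.7%. The mean was below 0 for 6 of the 10 genes and for 52.3% of all tested genes. The median of the 10 means was -0.07, and that of all tested genes was -0.0081. The median size was 0.13 for the 10 genes and 0.0936 for all tested genes.

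**Figure D2:**
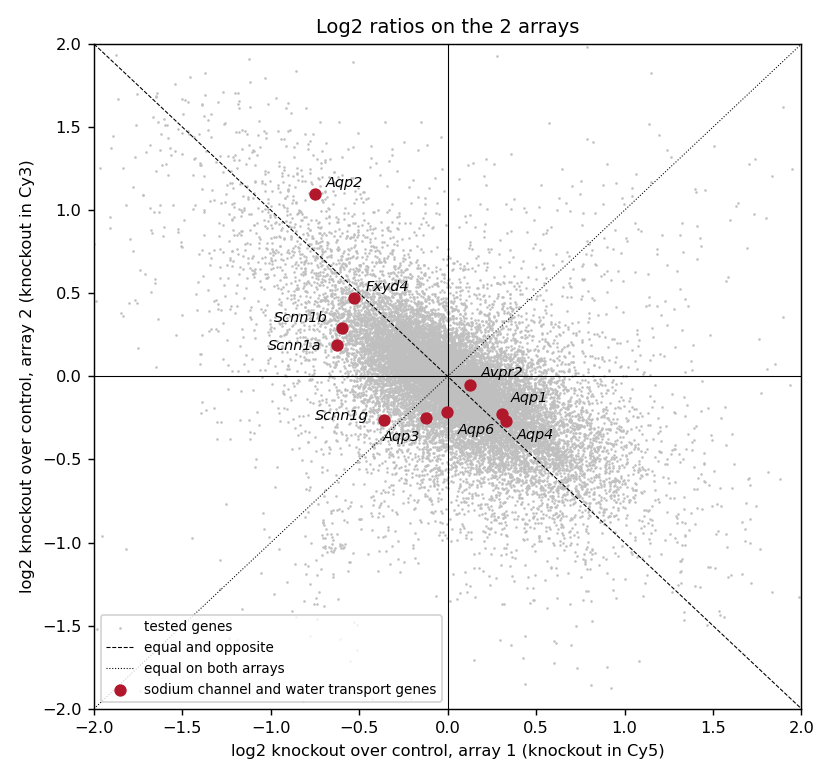
Log2 ratio of knockout over control on array 1 (x axis, knockout in Cy5) against array 2 (y axis, knockout in Cy3) for all tested genes in grey and the 10 genes in red; 126 tested genes lie outside the axes. The other 7 of the 10 genes sit in the upper left or lower right, where the ratios of the arrays have opposite signs, and Scnn1g, Aqp3 and Aqp6 sit in the lower left.

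For the other 7 genes the same dye was the brighter on both arrays, which is all that following the dyes means here. Whether the dye, a difference in RNA between the arrays or noise lay behind this was not tested. *Aqp2*, *Scnn1a*, *Scnn1b* and *Fxyd4* were brighter in Cy3, and *Aqp1*, *Aqp4* and *Avpr2* were brighter in Cy5. The dye contrast was larger than the genotype mean for these 7 of the 10 genes, against 72.3% of all tested genes. This restates the count of directions, since the contrast exceeds the mean exactly where the ratios of the arrays have opposite signs. The median size of the dye contrast was 0.28 log2 units for the 10 genes and 0.21 for all tested genes.

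Since the dyes were exchanged, each genotype can also be compared within a dye, across the arrays. This comparison was chosen after the values above were seen. It removes the bias between dyes but takes in the difference between arrays, and each difference was centred on the median of the tested genes. Its mean equals that of the ratios apart from the centring, so it adds a second measure of scatter and no independent value. The direction was the same in Cy5 and in Cy3 for 4 of the 10 genes (*Scnn1a*, *Aqp3*, *Aqp6* and *Avpr2*), against 42.2% of all tested genes, and 0 of the 10 changed 2-fold, against 0.573%. With both dyes, 3 of the 10 were lower in knockout, against 21.1%, and the mean exceeded the SD of the dyes for 4 of the 10, against 32.7%.

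*Scnn1a* was lower in knockout by this comparison with both dyes, with log2 differences of -0.32 in Cy5 and -0.11 in Cy3 and a mean of -0.21 ± 0.15 (SD of the 2 dyes). *Aqp3* was also lower with both, at -0.10 and -0.26, and so was the brighter *Aqp6* probe, at -0.08 and -0.12. With the centring, *Aqp3* and the brighter *Aqp6* probe were thus lower in knockout in both ways of pairing the same signals. The median taken off in Cy5 was 0.21. Before that step, the Cy5 signals were higher in knockout, at 13005 against 12058 for *Aqp3* and 6009 against 5504 for *Aqp6*. The other *Aqp6* probe had -0.83 in Cy5 and 1.09 in Cy3. *Avpr2* was at 0.03 and 0.05 with its brighter probe and at -0.13 and 0.27 with the other. *Scnn1g*, whose ratios on the arrays differed little, had 0.32 in Cy5 and -0.93 in Cy3, with a mean of -0.30 ± 0.88 (SD). *Aqp2* drew closer, at -0.06 and 0.42, with a mean of 0.18 ± 0.34 (SD). *Fxyd4* was at 0.04 and -0.08, and its mean of -0.02 ± 0.08 (SD) was smaller than the SD.

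**Figure D3:**
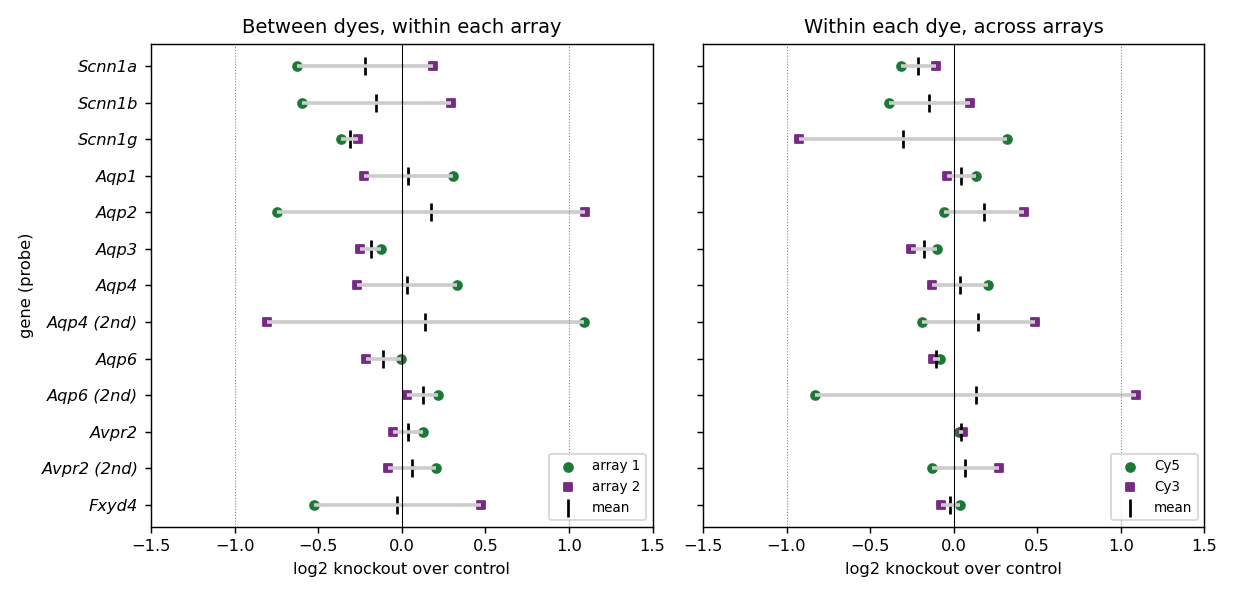
Log2 knockout over control of each of the 13 probes, as the ratio within each array (left, circles for array 1 and squares for array 2) and as the centred difference within each dye across the arrays (right, circles for Cy5 and squares for Cy3); black ticks are means, grey bars join the 2 values and dotted lines mark 2-fold. The values of Scnn1a, Aqp2 and Fxyd4 lie closer together on the right, those of Scnn1g and of the dimmer Aqp6 probe lie farther apart, and no mean reaches 2-fold.

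Among 25 regulators of ENaC and partner potassium channels, all of which were tested, 0 were higher and 0 lower by the 2-fold rule, against 0.599% of all tested genes in either direction. Of the 25, 6 kept 1 direction over the arrays, against 27.7% of all tested genes. The median of their means was -0.02. *Sgk1*, the aldosterone-induced kinase that keeps ENaC at the membrane, had ratios of 0.67 and 0.40 and a mean of 0.53 ± 0.20 (SD), the largest of this list. *Kcnj1*, the secretory potassium channel ROMK, had -0.58 and -0.15, with a mean of -0.37 ± 0.30 (SD). *Tsc22d3*, another steroid-induced gene, had 0.55 and -0.05, of opposite sign, though the array 2 ratio was small.

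For the aldosterone receptor and its guard enzyme, the ratios were of opposite sign as well. *Nr3c2*, the mineralocorticoid receptor, had ratios of 0.32 and -0.22 and a mean of 0.05 ± 0.38 (SD). *Hsd11b2*, which inactivates glucocorticoids in these cells, had -0.94 and 0.74, with a mean of -0.10 ± 1.19 (SD). *Nedd4l*, the ubiquitin ligase that removes ENaC from the membrane, had -0.10 and -0.18, with a mean of -0.14 ± 0.05 (SD). *Prss8*, a protease that activates ENaC, had -0.13 and 0.09.

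Of 28 genes of vasopressin signaling, cAMP and aquaporin 2 trafficking, 27 were tested, 0 were higher and 0 lower by the 2-fold rule, against 0.599% of all tested genes in either direction. Of the 27, 11 kept 1 direction over the arrays, against 27.7% of all tested genes. The median of their means was -0.0042. *Adcy3*, an adenylyl cyclase, had ratios of 1.09 and 1.28 but was too dim to pass the call on background, and was not tested. *Akap7*, an anchoring protein of protein kinase A, had -0.65 and -1.21, with a mean of -0.93 ± 0.39 (SD), just short of 2-fold. Its other probes had means of -0.05 and -0.06, so the probes of *Akap7* disagreed.

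The next in size were *Prkar2a*, a regulatory subunit of the same kinase, and *Ptger1*, a prostaglandin receptor. *Prkar2a* had ratios of 0.69 and 0.07 and a mean of 0.38 ± 0.43 (SD), and *Ptger1* had 0.47 and 0.22, with a mean of 0.35 ± 0.18 (SD). Of 3 genes on the way from receptor to kinase named whatever their value, 2 followed the dyes. *Gnas*, the stimulatory G protein, had 0.13 and 0.08, *Adcy6*, a cyclase of the collecting duct, had -0.37 and 0.15, and *Prkaca*, the catalytic subunit, had -0.36 and 0.38.

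Of 7 other aquaporin genes, 4 were tested, and *Aqp5* was higher in knockout by the 2-fold rule, a rule that 0.315% of all tested genes passed as higher. *Aqp5* encodes a water channel best known from glands and lung. Its signal was 63.0 in knockout and 23.5 in control on array 1, and 49.4 in knockout and 27.7 in control on array 2. Both knockout signals were above both control signals, but the share of all tested genes with such a gap was not computed. *Aqp5* was named because it passed the rule on these same signals. The ratios were 1.42 and 0.84, with a mean of 1.13 ± 0.42 (SD). Paired within the dyes, the same signals gave 0.98 in Cy5 and 1.30 in Cy3, which adds no independent value. The signals were low, and with an offset of 50 and loess normalization the mean was 0.21. A second *Aqp5* probe had ratios of 1.31 and 0.69 but was well above background only in the knockout channel of array 1. The brighter *Aqp5* probe (chr15:99425138-99425197) lies between those of *Aqp2* and *Aqp6*. The other tested members, *Aqp7*, *Aqp8* and *Aqp11*, had means between -0.20 and 0.02.

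**Figure D4:**
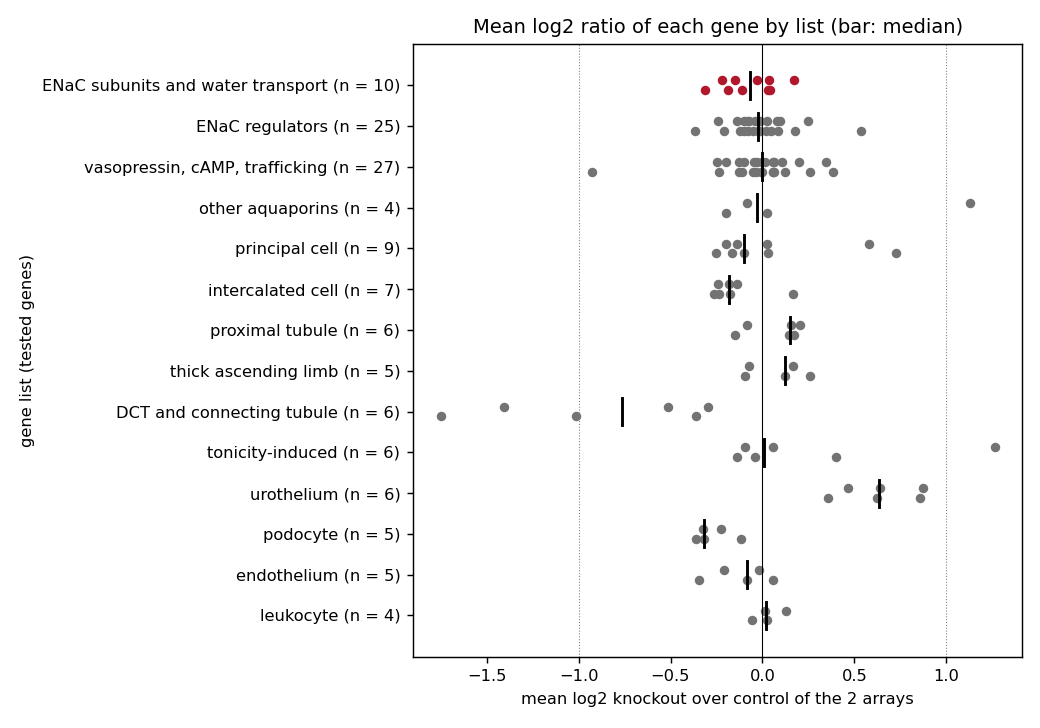
Mean log2 knockout over control of the 2 arrays (x axis) for each tested gene of the sodium channel and water transport genes (red) and of 13 other lists (grey), with the median as a bar and 2-fold as dotted lines. The 10 genes span -0.31 to 0.17 around a median of -0.07. All genes of the DCT and connecting tubule list and of the podocyte list lie below 0, and all of the urothelium list above 0.

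Markers of the cells that hold these transporters, and of their neighbours, were set beside them. The 9 other principal cell markers had a median mean of -0.10, from -0.25 (*Tfcp2l1*) to 0.72 (*Elf5*), and 0 changed 2-fold. Their summed signal was 11582 in knockout and 12345 in control on array 1, and 9886 and 11013 on array 2. *Tfcp2l1* alone gave 5983 and 6244 of these on array 1, and 4453 and 6040 on array 2, so the sum leans on its probe. The 7 intercalated cell markers had a median of -0.18, from -0.26 (*Foxi1*) to 0.16 (*Atp6v1b1*). Their summed signal was 16982 in knockout and 19684 in control on array 1, and 14089 and 16603 on array 2. *Slc26a4* alone gave 8318 and 10162 of these on array 1, and 7155 and 8189 on array 2. Of the 7 markers, 4 were lower on both arrays, against 15.6% of all tested genes. The brighter *Aqp6* probe, at -0.11, lay within the range of that list. *Elf5*, a transcription factor, had ratios of 1.16 and 0.29.

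The 6 proximal tubule markers had a median of 0.15, from -0.15 (*Slc5a12*) to 0.21 (*Slc22a6*), and the 5 of the thick ascending limb 0.12, from -0.10 (*Umod*) to 0.26 (*Ptger3*). Among 6 markers of the DCT and connecting tubule, in part the site of ENaC, the median was -0.76, from -1.75 (*Pvalb*) to -0.30 (*Slc12a3*). *Slc12a3* had ratios of -0.78 and 0.19, of opposite sign. The other 5 were lower on both arrays, against 15.6% of all tested genes. By the 2-fold rule 3 were lower (*Pvalb*, *Calb1* and *Trpm6*), a rule that 0.284% of all tested genes passed as lower. The 6 tonicity-induced genes had a median of 0.01, from -0.14 (*Slc5a3*) to 1.26 (*Akr1b3*), and 1 was higher, against 0.315%. *Pvalb*, *Trpm6* and *Akr1b3* are among the changed genes that the study lists from these arrays. The marker lists were chosen with earlier results known, so these counts are a description and no independent support. The 6 urothelial markers were higher on both arrays in 6 of 6 cases, against 12.1% of all tested genes, though 0 reached 2-fold. They had a median of 0.63, from 0.36 (*Upk2*) to 0.87 (*Upk1b*). Their summed signal was 2710 in knockout and 1895 in control on array 1, and 2359 and 1564 on array 2. *Upk1a* alone gave 1453 and 1093 of these on array 1, and 1129 and 789 on array 2.

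The 5 podocyte markers had a median of -0.32, from -0.36 (*Wt1*) to -0.11 (*Podxl*). Of these 5, 4 were lower on both arrays, against 15.6% of all tested genes. Endothelial markers had a median of -0.08, from -0.34 (*Cdh5*) to 0.06 (*Emcn*). Of 5 leukocyte markers, 4 were tested, with a median of 0.02, from -0.06 (*Ptprc*) to 0.13 (*Cd3e*). The part of any of these cell types in the values of the 10 genes and of *Aqp5* was not tested.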

How the data were processed

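The authors deposited scanner output of 2 two-colour arrays. The processed signal intensity deposited by the authors had been corrected by the scanner software for background, spatial trends and dye bias. In the scanner output the deposited log10 ratio is that of red over green, while the deposited matrix holds knockout over control on both arrays. The deposited error score of the scanner ratio comes from the software's error model. The labels name Agilent Feature Extraction 10.5.1.1, and the file headers 10.7.3.1. Control spots and 141 and 175 marked spots were left out. Log2 ratios of processed signals were turned to knockout over control and averaged over the arrays. The brightest probe stands for a gene. Members and lists were chosen with earlier results of these data known. Named were all 10 genes, the check gene, and the genes past the 2-fold rule or else the 3 largest of each pathway list. Some fixed regulators, the lowest and highest of each marker list and its genes past the 2-fold rule were named too. Alternatives were normexp (offset of 50) with loess in limma 3.58.1, loess without background correction, background-subtracted signals centred on the median (floor of 1), the scanner and matrix log10 ratios, other limits on dim probes, marked spots kept, the median over probes, and each array alone. On simulated data, 99.5% of 200 genes changed by 1.5 log2 units among 19707 were recovered. There the dye effect cancelled in the mean, the noise was small and the change lay above the limit. The simulation thus checks the counting rule and not the power to find smaller changes. Python 3.11.15, numpy 2.4.6, pandas 2.3.3, scipy 1.17.1, matplotlib 3.10.9 and R 4.3.3 were used.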

Additional observations from a re-analysis of the deposited data

How the results depend on the processing

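No alternative run on both arrays took any of the 10 genes past 2-fold. Each array alone counted 0 (array 1) or 1 (array 2, *Aqp2*), a range of 0 to 1. The median of the 10 means was -0.24 on array 1 alone and -0.13 on array 2 alone, against -0.07 on both. Of 100 values of single genes under alternatives on both arrays, 3 moved by more than the SD of the arrays, all of *Scnn1g*, which had -0.03 with normexp and loess, -0.20 with background-subtracted signals and -0.09 with loess alone. *Aqp6* had 0.01 with the median over its probes. Of the vasopressin and cAMP list, 1 gene was counted with no limit on signal (*Adcy3*) and 1 on array 2 alone (*Akap7*), for a range of 0 to 1 over single arrays. Of the other aquaporins, 0 were counted with normexp and loess, 0 with loess alone and 0 on array 2 alone, against 1, *Aqp5*, in the report and on array 1. No alternative changed the count of ENaC regulators on both arrays. Over all 19707 tested genes, 118 were counted in the report, 15 with normexp and loess and 24 with loess alone. The count was 64 of 18920 genes where both genotypes had to pass the call on background. With no limit on signal it was 411 of 31821 genes. Of the 10 genes, those with the same direction on both arrays were *Scnn1g* and *Aqp3* with either loess setting and 0 with background-subtracted signals. The share of all tested genes with the same direction is not given for these settings, so no comparison is drawn. Over all tested genes, Pearson's r of the arrays was -0.59 with either loess setting and -0.56 with background-subtracted signals, against -0.51 in the report.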
